A study of Mus musculus with 7 samples.

Results

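Leucine tRNAs without an intron are the tRNAs that carry leucine to the ribosome and whose genes hold no sequence to be spliced out. They were taken from the deposited table by name: every whole-RNA row named as a leucine tRNA, other than those with the anticodon CAA. The rule found 14 gene rows among 3894 whole-RNA rows, and among 224 unspliced tRNA rows. They fall into 4 anticodon families, with 3 rows for AAG, 4 for CAG, 4 for TAA and 3 for TAG. The row names give the anticodon, then a number for each distinct sequence, then a number for the gene copy, which is 1 in all 14.

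The RNA came from RAW264.7, a mouse macrophage line, and was read by a template-switching method with a reverse transcriptase of group II intron origin. Each of the 7 groups had 1 library. Extracellular vesicles (EVs) are membrane particles that cells release; 5 EV libraries were made, after sucrose gradient separation and micrococcal nuclease, and 2 libraries came from rRNA-depleted RNA of whole cells. The D389N EVs came from cells with a hairpin against Dis3l2 (shDis3l2) plus a Dis3l2 transgene carrying the catalytically inactive D389N form, the Dis3l2r EVs from shDis3l2 cells plus a hairpin-resistant Dis3l2 transgene, and the Vector EVs from shDis3l2 cells plus an empty vector. The remaining libraries were EVs and whole cells of the line with the hairpin alone (shDis3l2) and of the line with a non-silencing hairpin (shNS). All cultures received doxycycline at 1 ug/mL, beginning 3 days ahead of the change of medium, and EVs were gathered over 24 h. No transgene line has a whole-cell library here. Dis3l2 itself and macrophage markers were not analysed here, since the table pairs no gene names with its transcript rows.

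tRNAs of 1 amino acid with different anticodons are called isoacceptors, and each reads particular codons of that amino acid. The AAG family, whose first anticodon base is edited to inosine, serves codons that begin with CU, and the CAG family reads CUG, a much used leucine codon of mammals. The TAG family reads CUA and the TAA family reads UUA. Leucine tRNAs share a long variable arm with the tRNAs for serine and selenocysteine, whereas most other tRNAs have a short one. The leucine family left out here, with anticodon CAA, is made from precursors whose intron is cut out. Dis3l2 is an exoribonuclease that shortens RNA from its 3' end, with a preference for RNA that carries added uridines, and tRNAs and further RNA polymerase III transcripts are among its known substrates.

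RefSeq annotation of the mouse build GRCm38.p6 lists 5 genes for Leu-AAG, 10 for Leu-CAG, 3 for Leu-TAA and 3 for Leu-TAG. The AAG and TAG genes are 82 bases long and the CAG and TAA genes 83. Any bearing of length on the levels of the 4 families was not tested. Of the 10 Leu-CAG genes, 5 lie in a stretch of chromosome 1 from 171038614 to 171101920, and the AAG genes are spread over 4 chromosomes. The 4 Leu-CAA genes are 105 to 107 bases long. The gene rows were not paired with single RefSeq genes. Because rows of a family can share most of their sequence, the authors' counting may have split reads between them, and sums per family do not depend on that split.

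Whole-RNA rows held 13439408 to 25177102 counts per EV library and 32342600 and 37041326 counts in shDis3l2 and shNS cells. Levels below are counts scaled by these totals (CPM). Named tRNA rows made up 70.2% to 76.9% of EV counts and 9.09% and 13.7% of the counts in shDis3l2 and shNS cells. A single transcript held 46.1% of counts in shDis3l2 cells and 19.3% in shNS cells, against at most 8.30% in EVs. These shares bear on every level compared between EVs and cells, and their part in the results was not tested beyond the scalings given. In bulk libraries such as these, fewer vesicles or cells and less RNA in each cannot be told apart.

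All 4 leucine families were higher in EVs than in cells, by log2 fold changes of 2.79 to 3.32. Leu-AAG was the most abundant of them in 7 of 7 libraries and Leu-TAA the least. Set against named tRNA counts instead of all counts, 0 of 4 families passed the test. Within families, tRNA-Leu-CAG-1-1 was the leucine row that passed the test of shares, and it took less of Leu-CAG in EVs than in cells. Among EVs, the D389N library held the most leucine tRNA, with Leu-CAG furthest above the Vector library.

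The tRNA-Leu-AAG family stood at 20606 CPM in D389N, 15823 in Dis3l2r, 13771 in Vector, 14011 in shDis3l2 and 16052 in shNS EVs, against 1309 in shDis3l2 and 1976 in shNS cells. Leu-TAG stood at 15615 CPM in D389N, 11074 in Dis3l2r, 13503 in Vector, 12107 in shDis3l2 and 11156 in shNS EVs, against 1264 in shDis3l2 and 1945 in shNS cells. Both families lay above the cells in every EV library, and Leu-TAG was close to Leu-AAG in Vector EVs and in both cell libraries. Named tRNA rows as a whole also took a far larger share of counts in EVs. Here and below, how many other tRNA families or rows separated EVs from cells without overlap was not counted.

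The tRNA-Leu-CAG family stood at 17089 CPM in D389N, 10928 in Dis3l2r, 9256 in Vector, 7677 in shDis3l2 and 11104 in shNS EVs, against 805 in shDis3l2 and 1675 in shNS cells. Leu-TAA, the family for the UUA codon, stood at 3421 CPM in D389N, 2755 in Dis3l2r, 2685 in Vector, 1929 in shDis3l2 and 2279 in shNS EVs, against 267 in shDis3l2 and 519 in shNS cells. The EV and cell libraries did not overlap for either family, and among EVs the D389N library was the highest and the shDis3l2 library the lowest for both. Leu-CAG varied more among the EVs, with 2.23 times as much in the highest as in the lowest library, than Leu-TAG did with 1.41 times.

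**Figure D1:**
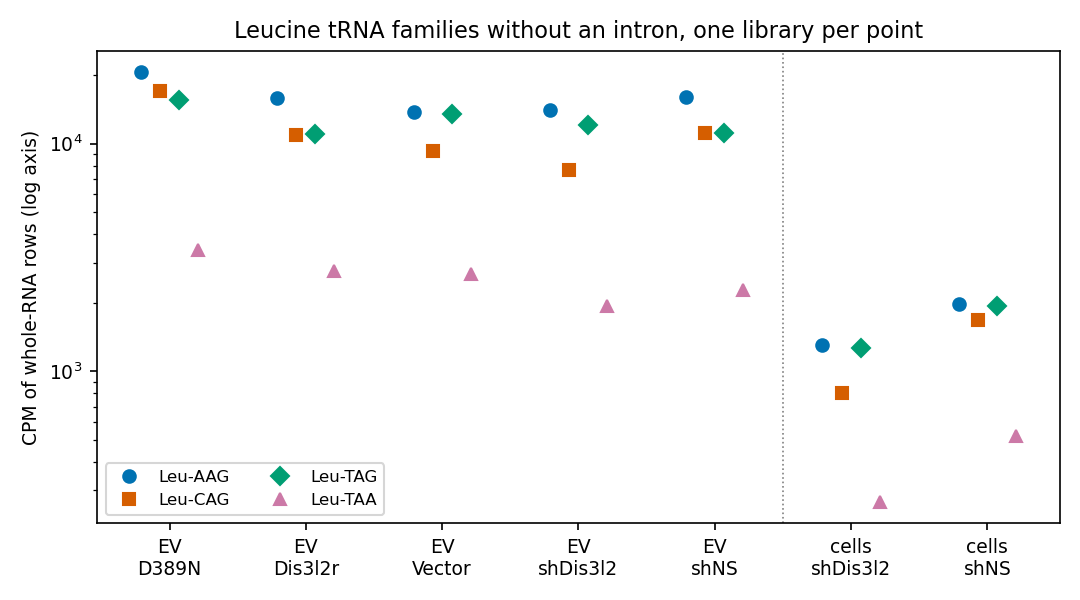
Level of each leucine tRNA family (CPM, log axis) in the 5 EV libraries, left of the dotted line, and the 2 whole-cell libraries, right of it; each point is 1 library. Every EV point of a family lies above both cell points of that family, and Leu-TAA is lowest throughout, at 1929 to 3421 CPM in EVs and 267 and 519 CPM in shDis3l2 and shNS cells.

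The question of the first comparison was how the RNA of EVs differs from that of the cells that made them. Preparation differed as well, since EVs had gradient separation and nuclease and cell RNA was rRNA-depleted. Compartment and preparation cannot be told apart here. The 5 EV and 2 cell libraries were fitted with edgeR's quasi-likelihood test, with Dis3l2 class as a covariate and library totals as the scale, on all rows; libraries of a compartment are different genotypes and not replicates, so the p-values measure the spread between genotypes. Higher calls made up 19.6% of the 485 families and other rows tested, and 4 of 4 leucine families were among them. Leu-AAG was higher in EVs by 3.32 (SE 0.447, adjusted p = 2.05e-05), Leu-CAG by 3.26 (SE 0.527, adjusted p = 0.000100), Leu-TAG by 2.98 (SE 0.442, adjusted p = 4.86e-05) and Leu-TAA by 2.79 (SE 0.494, adjusted p = 0.000204), as log2 fold changes from edgeR. All 4 families were also called when any 1 library, the high D389N one included, was left out, with values between 2.28 and 3.82.

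The shNS and shDis3l2 lines each gave an EV and a cell library, so the same ratio could be read within a line. Such a pair of single libraries allows no test. A row was taken as past the 2-fold rule when both libraries together held 100 counts or more, the ratio was 2 or more in either direction, and its exact 95% interval left out 1; the interval covers counting error only. In the shDis3l2 line 33.1% of 525 rows were past the rule upwards, and 12 of 12 measured leucine rows were. Among these, tRNA-Leu-AAG-2-1 (226 EV and 20 cell counts) and tRNA-Leu-TAA-3-1 (144 EV and 49 cell counts) reached 100 counts through their EV library. In the shNS line 32% of 531 rows were past the rule upwards, and 9 of 11 leucine rows were. There tRNA-Leu-TAA-3-1 entered in the same way, with 348 EV and 64 cell counts. These passes are no separate support for a higher EV level. Higher in EVs but short of the limit were tRNA-Leu-CAG-1-1, at a log2 ratio of 0.66 (0.63 to 0.69), and tRNA-Leu-TAA-1-1, at a log2 ratio of 0.77 (0.74 to 0.81). As families in the shDis3l2 line, EVs exceeded cells by log2 ratios of 3.42 for Leu-AAG, 3.26 for Leu-TAG, 3.25 for Leu-CAG and 2.85 for Leu-TAA. In the shNS line the ratios were 3.02, 2.52, 2.73 and 2.14 for Leu-AAG, Leu-TAG, Leu-CAG and Leu-TAA. All 4 ratios were larger in the shDis3l2 line; with 1 library a side that difference was not tested. With totals that leave out the most abundant cell transcript, the ratios of the shDis3l2 line came to 2.58 for Leu-AAG, 2.42 for Leu-TAG, 2.41 for Leu-CAG and 2.01 for Leu-TAA. The shNS line then had 2.79 for Leu-AAG, 2.29 for Leu-TAG, 2.50 for Leu-CAG and 1.90 for Leu-TAA, so the lead of the shDis3l2 line was lost for Leu-AAG and Leu-CAG and remained for Leu-TAG and Leu-TAA.

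By gene row, edgeR called 31.2% of all 642 rows tested higher in EVs and 47.7% lower, and of the 14 leucine rows it called 12 higher and 0 lower. Of 3 rows with at most 20 counts in each cell library, which entered the test through their EV counts, tRNA-Leu-AAG-2-1 and tRNA-Leu-TAA-4-1 are among the 12. Without these 3 rows, 10 of 11 were called higher and 0 lower. The median log2 fold change was 3.43 over the 14 rows and 3.51 over the 11. Among 22 other rows with a long variable arm, from serine, selenocysteine and Leu-CAA tRNAs, 16 were higher and 3 lower, with a median of 2.45. Among all 197 other tRNA rows, which include those with a long variable arm, 137 were higher and 9 lower, with a median of 2.16. Over all rows the median was -1.33.

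In the AAG family most counts fell on 1 row. tRNA-Leu-AAG-1-1 stood at 17032 CPM in D389N, 12993 in Dis3l2r, 11147 in Vector, 11245 in shDis3l2 and 12304 in shNS EVs, against 1007 in shDis3l2 and 1581 in shNS cells. tRNA-Leu-AAG-3-1 stood at 3573 CPM in D389N, 2828 in Dis3l2r, 2621 in Vector, 2753 in shDis3l2 and 3745 in shNS EVs, against 301 in shDis3l2 and 395 in shNS cells. Both rows were higher in every EV library than in either cell library. In edgeR tRNA-Leu-AAG-1-1 was higher in EVs by 3.36 (SE 0.471, adjusted p = 2.71e-05) and tRNA-Leu-AAG-3-1 by 3.19 (SE 0.448, adjusted p = 2.76e-05). The remaining row, tRNA-Leu-AAG-2-1, was thinly covered, with 13 counts in D389N, 38 in Dis3l2r, 52 in Vector, 226 in shDis3l2 and 68 in shNS EVs, against 20 in shDis3l2 and 10 in shNS cells. It entered the edgeR test through its EV counts. Its level in D389N EVs, 0.599 CPM, lay below that of shDis3l2 cells, 0.606 CPM, so EVs and cells overlapped. Its call in EVs, 3.17 (SE 1.34, adjusted p = 0.0453), was lost in edgeR without any 1 of 5 libraries, with adjusted p = 0.172 without shDis3l2 EVs, 0.0557 without Dis3l2r EVs, 0.0538 without shNS EVs, 0.166 without shDis3l2 cells and 0.159 without shNS cells.

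The TAG family had 3 rows with ample counts. tRNA-Leu-TAG-3-1, the main row, stood at 9837 CPM in D389N, 6660 in Dis3l2r, 7664 in Vector, 7380 in shDis3l2 and 6636 in shNS EVs, against 909 in shDis3l2 and 1418 in shNS cells. tRNA-Leu-TAG-1-1 stood at 4258 CPM in D389N, 3112 in Dis3l2r, 4202 in Vector, 3311 in shDis3l2 and 3185 in shNS EVs, against 249 in shDis3l2 and 382 in shNS cells. tRNA-Leu-TAG-2-1 stood at 1520 CPM in D389N, 1303 in Dis3l2r, 1637 in Vector, 1416 in shDis3l2 and 1334 in shNS EVs, against 106 in shDis3l2 and 144 in shNS cells. All 3 rows were higher in every EV library than in either cell library, which was not counted over other tRNA rows. The edgeR log2 fold changes were 2.70 (SE 0.453, adjusted p = 0.000125) for tRNA-Leu-TAG-3-1, 3.51 (SE 0.475, adjusted p = 1.98e-05) for tRNA-Leu-TAG-1-1 and 3.52 (SE 0.463, adjusted p = 1.52e-05) for tRNA-Leu-TAG-2-1. tRNA-Leu-TAG-2-1 was the steadiest member among EVs, with 1.26 times as much in the highest as in the lowest EV library.

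The CAG family was uneven between its rows. tRNA-Leu-CAG-2-1 stood at 15611 CPM in D389N, 9855 in Dis3l2r, 8284 in Vector, 6777 in shDis3l2 and 10065 in shNS EVs, against 576 in shDis3l2 and 1266 in shNS cells. tRNA-Leu-CAG-1-1 stood at 548 CPM in D389N, 406 in Dis3l2r, 477 in Vector, 537 in shDis3l2 and 578 in shNS EVs, against 204 in shDis3l2 and 366 in shNS cells. EVs and cells were far apart for tRNA-Leu-CAG-2-1, while for tRNA-Leu-CAG-1-1 the lowest EV library, Dis3l2r, was close to shNS cells. In edgeR tRNA-Leu-CAG-2-1 was higher in EVs by 3.55 (SE 0.554, adjusted p = 6.96e-05), whereas tRNA-Leu-CAG-1-1 at 0.89 (SE 0.445, adjusted p = 0.0838) did not pass. With DESeq2 size factors tRNA-Leu-CAG-1-1 passed in edgeR, at 2.06 (adjusted p = 0.00226).

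tRNA-Leu-CAG-4-1 stood at 925 CPM in D389N, 666 in Dis3l2r, 495 in Vector, 361 in shDis3l2 and 458 in shNS EVs, against 24.6 in shDis3l2 and 42.7 in shNS cells, a difference of 4.15 on the log2 scale (SE 0.618, adjusted p = 4.54e-05, edgeR). It was the row with the largest fold change among the 11 rows with at least 49 counts in every library. tRNA-Leu-CAG-3-1 had 93 counts in D389N, 23 in Dis3l2r, 19 in Vector, 32 in shDis3l2 and 40 in shNS EVs, against 2 in shDis3l2 and 16 in shNS cells. At this depth it was not called in EVs against cells (3.20, SE 1.43, edgeR adjusted p = 0.0556), and DESeq2 gave adjusted p = 0.0241. It entered both tests through its EV counts, so neither is separate support for a higher EV level.

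The TAA family showed a similar split between a pair of rows. tRNA-Leu-TAA-2-1 stood at 2530 CPM in D389N, 1994 in Dis3l2r, 1714 in Vector, 1282 in shDis3l2 and 1704 in shNS EVs, against 81.7 in shDis3l2 and 190.1 in shNS cells. tRNA-Leu-TAA-1-1 stood at 872 CPM in D389N, 731 in Dis3l2r, 944 in Vector, 639 in shDis3l2 and 559 in shNS EVs, against 184 in shDis3l2 and 327 in shNS cells. tRNA-Leu-TAA-2-1 exceeded tRNA-Leu-TAA-1-1 in all 5 EV libraries and lay below it in both cell libraries. The edgeR log2 fold changes were 3.87 (SE 0.551, adjusted p = 3.02e-05) for tRNA-Leu-TAA-2-1 and 1.55 (SE 0.474, adjusted p = 0.00936) for tRNA-Leu-TAA-1-1. The call of tRNA-Leu-TAA-1-1 was lost without the shDis3l2 cell library, at 0.98 (adjusted p = 0.162, edgeR), where the lone cell library was assumed to vary like the rest.

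The minor rows of the TAA family carried few counts. tRNA-Leu-TAA-3-1 stood at 17.2 CPM in D389N, 27.6 in Dis3l2r, 25.1 in Vector, 7.81 in shDis3l2 and 14.7 in shNS EVs, against 1.52 in shDis3l2 and 1.73 in shNS cells, and was higher in EVs by 3.53 (SE 0.896, adjusted p = 0.00304, edgeR). In the fit on the 4 libraries of the shDis3l2 and shNS lines, with line as a block, it had 2.73 (adjusted p = 0.0579, edgeR). tRNA-Leu-TAA-4-1 had 44 counts in D389N, 24 in Dis3l2r, 63 in Vector, 17 in shDis3l2 and 32 in shNS EVs, against 2 in shDis3l2 and 1 in shNS cells. It entered the edgeR test through its EV counts, so the test is no separate support for a higher EV level. Its log2 ratio was 3.90 (1.82 to 7.06) in the shDis3l2 line and 5.65 (3.06 to 10.99) in the shNS line, as exact 95% counting intervals. The edgeR value of 5.14 (SE 1.42, adjusted p = 0.00518) was not called without either cell library, with adjusted p = 0.0769 without shNS cells and 0.0713 without shDis3l2 cells.

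Between EVs and cells the choice of scale set the answer for most rows. The 14 rows together took 7.59% in D389N, 5.78% in Dis3l2r, 5.10% in Vector, 5.03% in shDis3l2 and 5.41% in shNS EVs, against 4.01% in shDis3l2 and 4.46% in shNS cells, as a share of named tRNA counts. Every EV library thus had a larger leucine share of its tRNA than either cell library, but the D389N library stood well above the others. With totals of named tRNA rows as the scale, edgeR gave 0.60 for Leu-AAG (SE 0.348, adjusted p = 0.145), 0.56 for Leu-CAG (SE 0.417, adjusted p = 0.253), 0.27 for Leu-TAG (SE 0.331, adjusted p = 0.485) and 0.09 for Leu-TAA (SE 0.399, adjusted p = 0.849), and called 0 of 4 families. This scale moved the median of all rows by -2.74 on the log2 scale.

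**Figure D2:**
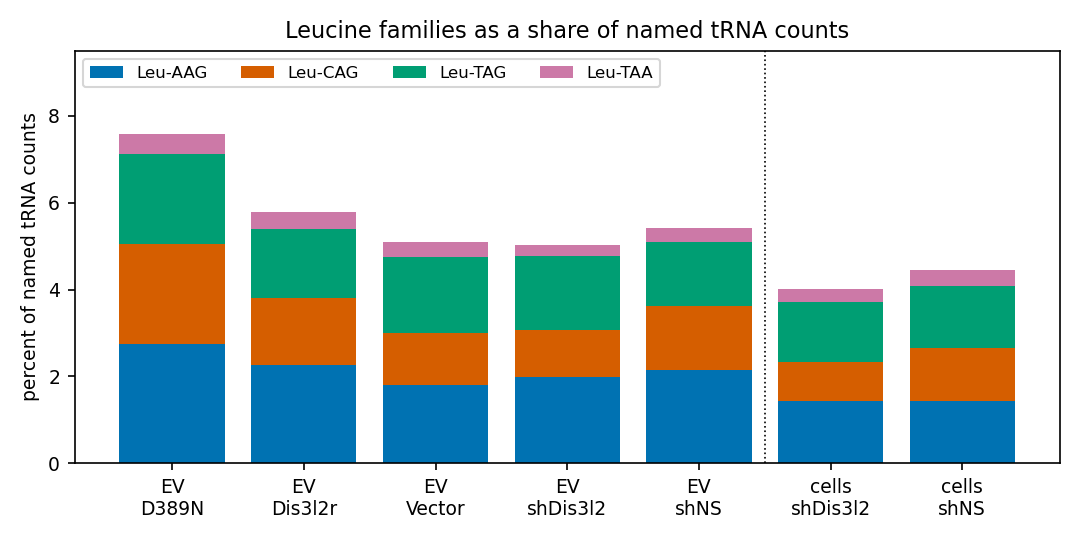
Leucine tRNA families without an intron as a percentage of all named tRNA counts, stacked by family, with EV libraries left of the dotted line and whole-cell libraries right of it. The whole bar is 7.59% in D389N EVs, between 5.03% and 5.78% in the other EVs, and 4.01% and 4.46% in shDis3l2 and shNS cells.

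On the tRNA scale 4 of 14 rows were called by edgeR, in both directions. tRNA-Leu-CAG-4-1 at 1.45 (adjusted p = 0.0343) and tRNA-Leu-TAA-2-1 at 1.18 (adjusted p = 0.0322) were higher in EVs. tRNA-Leu-CAG-1-1 at -1.82 (adjusted p = 0.00101) and tRNA-Leu-TAA-1-1 at -1.14 (adjusted p = 0.0186) were lower in EVs. The main rows of the other families lay nearer to 0, with tRNA-Leu-AAG-1-1 at 0.64 and tRNA-Leu-TAG-3-1 at -0.0008, and were not called.

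**Figure D3:**
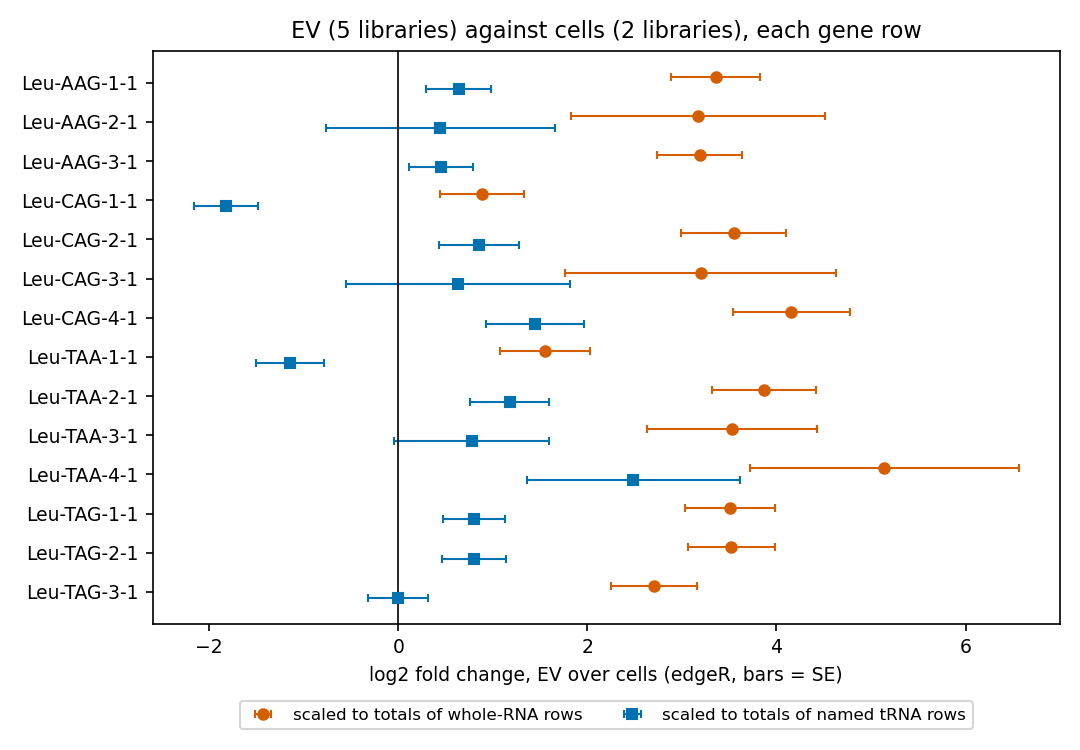
edgeR log2 fold change of each leucine gene row, 5 EV over 2 whole-cell libraries, with bars of 1 SE derived from the test statistic. Circles use totals of whole-RNA rows as the scale and squares totals of named tRNA rows. On the first scale all 14 circles lie right of 0, and on the second tRNA-Leu-CAG-1-1 and tRNA-Leu-TAA-1-1 lie well left of it, at -1.82 and -1.14.

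Shares within a family do not depend on either scale. They can depend on how the authors' counting split reads between similar rows, which was not tested. Of the Leu-CAG counts, tRNA-Leu-CAG-1-1 made up 3.2% in D389N, 3.71% in Dis3l2r, 5.15% in Vector, 7% in shDis3l2 and 5.21% in shNS EVs, against 25.4% in shDis3l2 and 21.9% in shNS cells. tRNA-Leu-CAG-2-1 made up 91.4% in D389N, 90.2% in Dis3l2r, 89.5% in Vector, 88.3% in shDis3l2 and 90.6% in shNS EVs, against 71.6% in shDis3l2 and 75.6% in shNS cells. tRNA-Leu-CAG-4-1 made up 5.42% in D389N, 6.1% in Dis3l2r, 5.34% in Vector, 4.71% in shDis3l2 and 4.13% in shNS EVs, against 3.06% in shDis3l2 and 2.55% in shNS cells. In each case the EV libraries and the cell libraries did not overlap: EVs had less of tRNA-Leu-CAG-1-1 and more of the other 2 rows. How often shares of rows in other tRNA families separated in this way was not counted. The test of a row against its whole family (edgeR's diffSpliceDGE, added after these shares were seen) called 22.8% of 189 rows, and 1 of 14 leucine rows. That row was tRNA-Leu-CAG-1-1, at -2.37 relative to its family (adjusted p = 0.000111). It was called under every alternative scaling, filter, covariate and left-out library run, with values of -2.51 to -1.96.

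Within the TAA family, tRNA-Leu-TAA-1-1 made up 25.5% in D389N, 26.5% in Dis3l2r, 35.2% in Vector, 33.1% in shDis3l2 and 24.5% in shNS EVs, against 68.8% in shDis3l2 and 63% in shNS cells. tRNA-Leu-TAA-2-1 made up 73.9% in D389N, 72.4% in Dis3l2r, 63.8% in Vector, 66.4% in shDis3l2 and 74.8% in shNS EVs, against 30.6% in shDis3l2 and 36.6% in shNS cells. The highest EV share of tRNA-Leu-TAA-1-1 was well under the lowest cell share. In diffSpliceDGE tRNA-Leu-TAA-1-1 stood at -1.24 (adjusted p = 0.0511) and tRNA-Leu-TAA-2-1 at 1.08 (adjusted p = 0.133), so neither passed over 189 rows. tRNA-Leu-TAA-1-1 had adjusted p = 0.0480 with TMM scaling, and between 0.0504 and 0.215 when 1 library was left out.

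In the TAG family, tRNA-Leu-TAG-3-1 made up 63% in D389N, 60.1% in Dis3l2r, 56.8% in Vector, 61% in shDis3l2 and 59.5% in shNS EVs, against 72% in shDis3l2 and 72.9% in shNS cells. The complement was split between tRNA-Leu-TAG-1-1 and tRNA-Leu-TAG-2-1. EV and cell shares did not overlap, yet diffSpliceDGE gave -0.27 (adjusted p = 0.834) for tRNA-Leu-TAG-3-1. In the AAG family, tRNA-Leu-AAG-1-1 made up 82.7% in D389N, 82.1% in Dis3l2r, 80.9% in Vector, 80.3% in shDis3l2 and 76.7% in shNS EVs, against 77% in shDis3l2 and 80% in shNS cells, so the compartments overlapped. The 3 thinly covered rows never exceeded 0.0932% of their family.

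**Figure D4:**
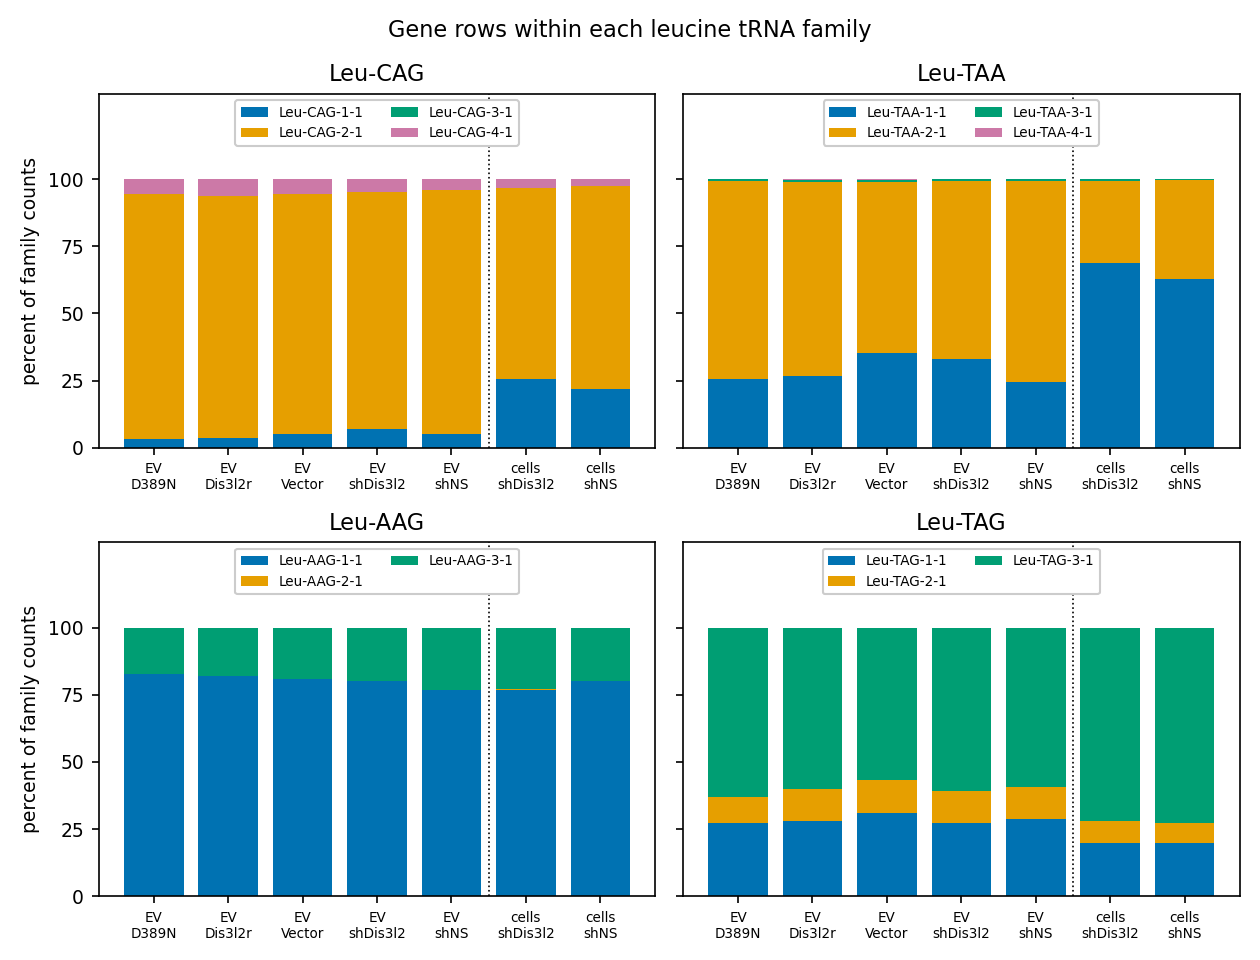
Percentage of each leucine family's counts on each of its gene rows, with EV libraries left of the dotted line and whole-cell libraries right of it. In Leu-CAG the row CAG-1-1 holds at most 7.0% in EVs and 25.4% and 21.9% in shDis3l2 and shNS cells, and in Leu-TAA the row TAA-1-1 holds 24.5% to 35.2% in EVs and 68.8% and 63.0% in shDis3l2 and shNS cells, while Leu-AAG overlaps between the compartments.

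The 4 families were next set against each other. Of the counts of all 14 rows, Leu-AAG made up 36.3% in D389N, 39% in Dis3l2r, 35.1% in Vector, 39.2% in shDis3l2 and 39.5% in shNS EVs, against 35.9% in shDis3l2 and 32.3% in shNS cells. Leu-TAG made up 27.5% in D389N, 27.3% in Dis3l2r, 34.4% in Vector, 33.9% in shDis3l2 and 27.5% in shNS EVs, against 34.7% in shDis3l2 and 31.8% in shNS cells. Leu-CAG made up 30.1% in D389N, 26.9% in Dis3l2r, 23.6% in Vector, 21.5% in shDis3l2 and 27.4% in shNS EVs, against 22.1% in shDis3l2 and 27.4% in shNS cells. For these 3 families the EV and cell ranges overlapped. Leu-TAA made up 6.03% in D389N, 6.79% in Dis3l2r, 6.85% in Vector, 5.4% in shDis3l2 and 5.61% in shNS EVs, against 7.33% in shDis3l2 and 8.48% in shNS cells, lower in every EV library than in either cell library. Tested against the other leucine families, 0 of 4 families were called by diffSpliceDGE in EVs against cells, where 14.3% of 35 families were, and their adjusted p lay between 0.911 and 0.985; 0 of 4 had an unadjusted p under 0.05.

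The left-out leucine family went the other way before splicing. Unspliced Leu-CAA rows summed to 917 CPM in D389N, 706 in Dis3l2r, 838 in Vector, 604 in shDis3l2 and 556 in shNS EVs, against 1224 in shDis3l2 and 1598 in shNS cells. Its spliced rows summed to 4635 CPM in D389N, 4189 in Dis3l2r, 6675 in Vector, 5758 in shDis3l2 and 6190 in shNS EVs, against 586 in shDis3l2 and 1420 in shNS cells. The spliced form was thus higher in every EV library than in cells, like the leucine families without an intron, and the unspliced form lower; the difference between the forms was not tested.

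Knockdown of Dis3l2 was read first within cells. Pairs within a compartment were put on 1 scale with TMM, edgeR's scaling by a trimmed mean, and judged by the 2-fold rule given above. In shDis3l2 against shNS cells, 35.7% of 513 rows passed and 0 of 11 measured leucine rows did. The family log2 ratios were -0.33 (-0.34 to -0.31) for Leu-AAG, -0.36 (-0.37 to -0.34) for Leu-TAG, -0.69 (-0.73 to -0.65) for Leu-TAA and -0.79 (-0.81 to -0.77) for Leu-CAG. Of the 11 rows, 10 lay below 0, with a median of -0.38, against -0.46 over 154 other tRNA rows. Totals of named tRNA rows as the scale moved all rows by 0.33; Leu-AAG and Leu-TAG then came to -0.0006 and -0.03, and 8 rows lay below 0, while Leu-TAA and Leu-CAG stayed at -0.36 and -0.46.

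In EVs of the same lines, shDis3l2 against shNS, 7.06% of 411 rows passed upwards and 1 of 12 measured leucine rows did. That row was tRNA-Leu-AAG-2-1, with 226 counts in shDis3l2 EVs and 68 in shNS EVs, a log2 ratio of 2.19 (1.79 to 2.60). It reached the count minimum of the rule through its shDis3l2 library, so its pass is no separate support for a higher shDis3l2 level. With the minimum at 500 counts the row was not measured, and 0 of 10 leucine rows passed. Vector EVs, from cells with the same hairpin, held 52 counts of tRNA-Leu-AAG-2-1. The families stood at -0.10 (-0.11 to -0.10) for Leu-AAG, -0.44 (-0.45 to -0.43) for Leu-CAG, -0.15 (-0.17 to -0.13) for Leu-TAA and 0.21 (0.20 to 0.22) for Leu-TAG. These signs were the same under each of the 4 other scalings, where Leu-TAG ranged from 0.09 to 0.20. The ratio of Leu-CAG was below 0 in both compartments, at -0.44 in EVs and -0.79 in cells. With totals of named tRNA rows these came to -0.45 in EVs and -0.46 in cells, and without the most abundant cell transcript to -0.56 in EVs and -0.48 in cells.

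Vector and shDis3l2 EVs both came from knockdown cells, and neither had a Dis3l2 transgene. They differ by the empty vector. With 1 library a side, the vector and the spread between libraries cannot be told apart. Of 393 rows 23.9% passed the rule, and 2 of 12 leucine rows did. They were tRNA-Leu-AAG-2-1 at -2.53 (-3.0 to -2.09) and tRNA-Leu-TAA-3-1 at 1.72 (1.46 to 1.99). With 52 counts in Vector and 226 in shDis3l2 EVs, tRNA-Leu-AAG-2-1 again reached the count minimum through its shDis3l2 library. Its pass is no separate support for a lower Vector level. The families stood at 0.01 for Leu-AAG, 0.30 for Leu-CAG, 0.19 for Leu-TAG and 0.51 for Leu-TAA. Leu-AAG turned to between -0.14 and -0.03 with 3 other scalings.

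Restoring Dis3l2 was read as Dis3l2r against Vector EVs. The rule was passed by 32.1% of 393 rows and by 0 of 11 measured leucine rows. Leu-AAG stood at 0.13 (0.12 to 0.14), Leu-CAG at 0.17 (0.16 to 0.18), Leu-TAA at -0.03 (-0.05 to -0.01) and Leu-TAG at -0.36 (-0.36 to -0.35). With DESeq2 size factors, which moved all rows by -0.22, all 4 lay below 0, at -0.09, -0.05, -0.26 and -0.58 for Leu-AAG, Leu-CAG, Leu-TAA and Leu-TAG. The median over the 11 leucine rows was 0.04, against -0.46 over 169 other tRNA rows and -0.75 over 22 other rows with a long variable arm, of which 20 lay below 0.

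Among the EV pairs, those with the catalytically inactive form held the largest differences of families. In D389N against Vector EVs, 10.8% of 379 rows passed upwards and 3 of 13 measured leucine rows did, all of the CAG family. tRNA-Leu-CAG-2-1, with 15611 CPM in D389N EVs and 8284 CPM in Vector EVs, stood at 1.17 (1.16 to 1.18). tRNA-Leu-CAG-4-1, with 925 CPM in D389N EVs and 495 CPM in Vector EVs, stood at 1.16 (1.13 to 1.19). tRNA-Leu-CAG-3-1 had 93 counts in D389N EVs and 19 in Vector EVs, a ratio of 2.81 (2.09 to 3.61). It reached the count minimum of the rule through its D389N library, so its pass is no separate support for a higher D389N level. The fourth CAG row, tRNA-Leu-CAG-1-1, stood at 0.45 (0.42 to 0.49). With totals, totals of named tRNA rows or totals without the most abundant cell transcript, tRNA-Leu-CAG-3-1 alone passed, again entering through its D389N counts. tRNA-Leu-CAG-2-1 then lay between 0.91 and 0.95 and tRNA-Leu-CAG-4-1 between 0.90 and 0.94, inside the 2-fold limit.

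As families, D389N against Vector EVs gave 1.14 (1.13 to 1.15) for Leu-CAG, 0.84 (0.83 to 0.84) for Leu-AAG, 0.60 (0.59 to 0.62) for Leu-TAA and 0.46 (0.46 to 0.47) for Leu-TAG. Leu-CAG alone of the 4 families was past the 2-fold rule, where 13.4% of 247 families and other rows were past it upwards. All 4 were above 0 under each of the 4 other scalings as well, but Leu-CAG then came to 0.88 with totals, 0.92 with totals of named tRNA rows and 0.90 without the most abundant cell transcript, inside the 2-fold limit. Totals moved all rows of this pair by -0.25. Of the 13 rows 12 lay above 0, with a median of 0.61; 9 did with totals or tRNA totals. Other tRNA rows had a median of -0.26, with 63 of 172 above 0, and other rows with a long variable arm a median of -0.36.

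D389N and Dis3l2r EVs differ by the D389N change in the transgene. Here 2.64% of 379 rows passed upwards and 1 of 12 leucine rows did, tRNA-Leu-CAG-3-1, at 1.61 (0.94 to 2.33). With 93 counts in D389N and 23 in Dis3l2r EVs, it too reached the count minimum through its D389N library. That pass is no separate support for a higher D389N level. Of the 12 rows 11 lay above 0, with a median of 0.64. Other tRNA rows leaned the same way, with a median of 0.21 and 105 of 163 above 0. Among these, rows with a long variable arm had a median of 0.34, with 18 of 21 above 0. The families stood at 0.88 (0.87 to 0.89) for Leu-CAG, 0.73 (0.72 to 0.74) for Leu-TAG, 0.61 (0.61 to 0.62) for Leu-AAG and 0.54 (0.53 to 0.56) for Leu-TAA. They were above 0 under the 4 other scalings too, with Leu-CAG between 0.55 and 1.04 and Leu-TAA between 0.22 and 0.71, where scalings moved all rows by -0.32 to 0.17. Both comparisons share the D389N library, and the Dis3l2r and D389N pairs share the Vector library, so they are not independent.

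**Figure D5:**
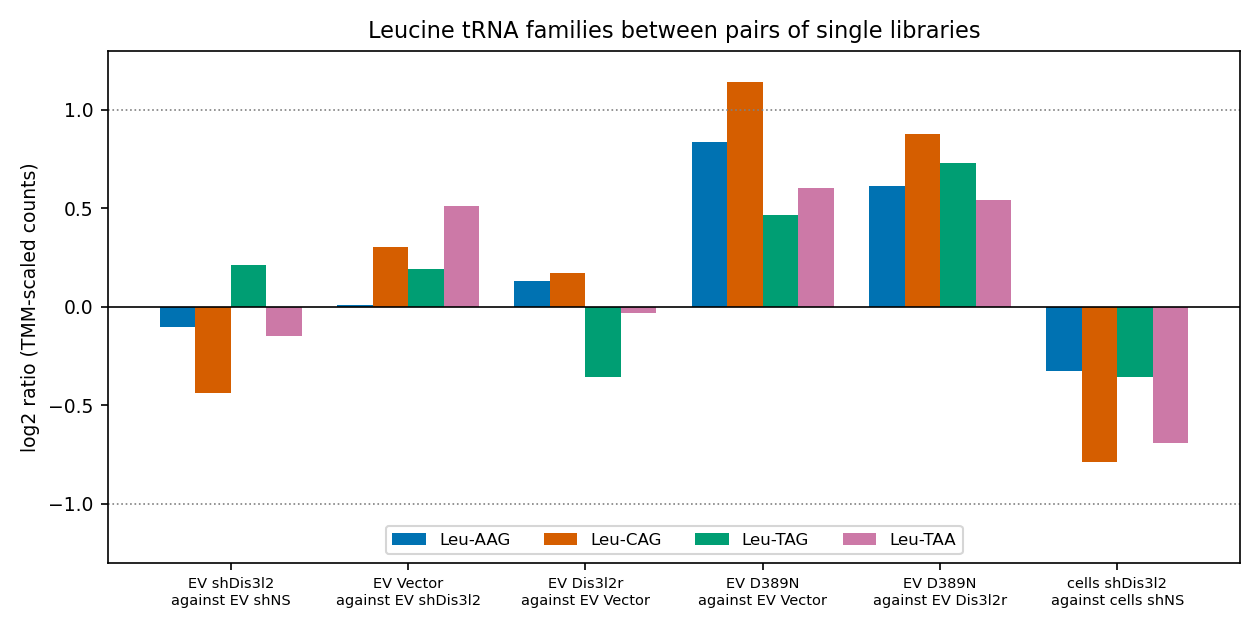
Log2 ratio of each leucine family between pairs of single libraries, scaled by TMM; the dotted lines mark 2-fold differences. Bars are above 0 for all families in both pairs with D389N, where Leu-CAG against Vector reaches 1.14, and below 0 for all in shDis3l2 against shNS cells, where Leu-CAG stands at -0.79.

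To ask whether loss of active Dis3l2 moved leucine tRNAs in EVs as a class, the 3 EV libraries without active Dis3l2 (D389N, Vector and shDis3l2) were set against the 2 with it (Dis3l2r and shNS) in edgeR. The class was assigned from the genotype, and its libraries are different genotypes. Of 575 rows 0.174% were called, and 0 of 14 leucine rows were; 0 of 14 had an unadjusted p under 0.05, and DESeq2 also called 0. Among the families, 0 of 4 were called by edgeR, where 0.239% of 419 were, with 0 of 4 at an unadjusted p under 0.05 and 0 by DESeq2. The edgeR log2 fold changes were 0.56 (SE 0.362, adjusted p = 0.563) for Leu-TAG, 0.37 (SE 0.403, adjusted p = 0.746) for Leu-TAA, 0.33 (SE 0.440, adjusted p = 0.816) for Leu-CAG and 0.29 (SE 0.380, adjusted p = 0.816) for Leu-AAG. Without the D389N library Leu-CAG stood at -0.20 and Leu-AAG at -0.02. Of 14 rows 13 had values above 0, the exception being tRNA-Leu-TAA-3-1 at -0.05. Over the 14 rows the median was 0.42, against 0.31 over 196 other tRNA rows and 0.10 over all 575 rows. It was 0.59 over the 22 other tRNA rows with a long variable arm. Shares within families, tested with diffSpliceDGE, gave calls for 0% of 188 rows, and 0 of 14 leucine rows had an unadjusted p under 0.05. For shares of families within their amino acid the calls were 0% of 35, and 0 of 4 leucine families had an unadjusted p under 0.05. A miss of the threshold at this number of libraries does not show that the classes are alike.

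The levels of the families over the 7 libraries were last compared with those of the other 50 anticodon families. Likeness was the root mean square difference of log2 CPM after each family was centred on its own mean, with a smaller value for more alike profiles; it is a description, since the points share libraries and totals. Leu-AAG was nearest to Gln-CTG (0.204), Leu-CAG (0.206) and Leu-TAG (0.211), against a median of 0.528 over all others. Leu-CAG was nearest to Leu-AAG (0.206), Gln-CTG (0.235) and Gln-TTG (0.245), with a median of 0.632. Leu-TAG was nearest to Gln-CTG (0.195), Ser-CGA (0.210) and Leu-AAG (0.211), with a median of 0.474. Leu-TAA had no leucine family among its nearest 3, which were Thr-TGT (0.148), Thr-AGT (0.202) and Cys-GCA (0.216), with a median of 0.542.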

How the data were processed

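RNA of 5 EV and 2 whole-cell libraries was read, 1 library per genotype and compartment. The authors deposited estimated counts per row, not scaled between libraries. cutadapt, UMI-tools, Novoalign and Salmon, with mouse builds GRCm38 and mm10, are named per the submitters' processing notes; their versions and order are not given in sources used here. Rows for exons, introns and untranslated pieces (576945) were not used. Estimated counts were rounded to whole numbers and tested with edgeR 4.0.16 in R 4.3.3 on every row past its filter on low counts, with Benjamini-Hochberg adjusted p under 0.05 as a call; DESeq2 1.42.0 was an alternative. An SE given with an edgeR value is the absolute log2 fold change over the square root of the F statistic. EVs against cells used library totals and Dis3l2 class as a covariate, and EV classes used TMM. Libraries of a compartment or class are different genotypes, not replicates.

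Pairs of single libraries have an exact conditional binomial 95% interval, which covers counting error only, and no test; EV against cell pairs were scaled by totals. A pair passed at 100 counts over both libraries (20 and 500 as alternatives) and a ratio of 2. Other scalings, no filter, no covariate and each library left out in turn were tried. Rows with 100 or more counts over the 7 libraries were described one by one, and for each family the 3 nearest profiles were named, after a pseudocount of 1 CPM. Tests of shares within families, with edgeR's diffSpliceDGE, and family sums in pairs were added after the data were seen. Members and lists were chosen with earlier results of these data known. The fitting scripts were tested on simulated data. No library could be paired by a replicate number.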

Additional observations from a re-analysis of the deposited data

Results flagged for a closer look

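In 4 of 30 sets of 5 EV values 1 library lay far from the others, by a gap to its nearest neighbour, as a share of the whole range, above the critical value for 5 samples. The 5 libraries are different genotypes, and chance alone flags about 1 in 20 groups. The gap was 0.805 of the range for tRNA-Leu-AAG-2-1 in CPM, high in shDis3l2 EVs at 226 counts. It was 0.735 for tRNA-Leu-CAG-3-1 in CPM, high in D389N EVs at 93 counts. The leucine share of whole-RNA counts had a gap of 0.768, with 5.67% in D389N EVs and 3.57% to 4.06% in the others. The share of tRNA-Leu-TAG-2-1 within its family had a gap of 0.821, low in D389N EVs at 9.73%.

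For 4 gene rows and 1 family the ratio of shDis3l2 to shNS was above 0 in EVs and below 0 in cells. The difference of the 2 log2 ratios, EVs minus cells, was 0.85 for tRNA-Leu-TAA-1-1, 0.62 for tRNA-Leu-TAG-3-1, 0.50 for tRNA-Leu-TAG-1-1, 0.36 for tRNA-Leu-TAG-2-1 and 0.57 for the Leu-TAG family. With 1 library a group the difference was not tested. In cells tRNA-Leu-TAG-2-1 turned to 0.15 with totals of named tRNA rows and to 0.13 without the most abundant cell transcript, so that its signs were no longer opposite. In cells Leu-TAG lay at -0.03 with totals of named tRNA rows and at -0.04 without the most abundant cell transcript.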

How the results depend on the processing

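With named tRNA totals, edgeR called 4 of 14 leucine rows in EVs against cells (2 each way) and 0 families, and the 2-fold rule passed 4 rows (2 each way) and 0 families in the shDis3l2 line, 2 rows (both lower) and 0 families in the shNS line, and 1 row and 0 families in D389N against Vector EVs. Totals gave 2 rows and 1 family in shDis3l2 against shNS cells, and 1 row and 0 families in D389N against Vector, as did leaving out the most abundant cell transcript for that pair. DESeq2 size factors gave 2 rows and 1 family in D389N against Dis3l2r. A minimum of 20 counts gave 1 row in shDis3l2 against shNS cells, 4 in Vector against shDis3l2, 1 in Dis3l2r against Vector, 4 in D389N against Vector and 2 in D389N against Dis3l2r; 500 counts gave 0 in shDis3l2 against shNS EVs, 1 in Vector against shDis3l2 and 0 in D389N against Dis3l2r. TMM called 2 rows within their families. The cause was not tested.

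Between EVs and cells, signs turned with named tRNA totals in the fit on 7 libraries for tRNA-Leu-CAG-1-1 (-1.82), tRNA-Leu-TAA-1-1 (-1.14) and tRNA-Leu-TAG-3-1 (-0.0008), in the shNS line for tRNA-Leu-CAG-1-1 (-1.79), tRNA-Leu-TAA-1-1 (-1.68), tRNA-Leu-TAG-3-1 (-0.22) and Leu-TAA (-0.32), and in the shDis3l2 line for tRNA-Leu-CAG-1-1 (-1.57), tRNA-Leu-TAA-1-1 (-1.17), tRNA-Leu-TAA-3-1 (-0.60) and Leu-TAA (-0.11). In shDis3l2 against shNS cells tRNA-Leu-TAG-2-1 turned to 0.15. Without against with active Dis3l2, tRNA-Leu-AAG-3-1 came to -0.14 with totals and -0.17 with tRNA totals, tRNA-Leu-TAA-2-1 to -0.0057 and -0.048, and Leu-AAG to -0.015 with tRNA totals. In that comparison, leaving out 1 library gave -1.05 to 1.49 for tRNA-Leu-AAG-2-1, -0.16 to 0.27 for tRNA-Leu-AAG-3-1, -0.22 to 0.55 for tRNA-Leu-CAG-2-1, -0.28 to 1.24 for tRNA-Leu-CAG-3-1, -0.20 to 0.60 for tRNA-Leu-CAG-4-1, -0.12 to 0.42 for tRNA-Leu-TAA-2-1, -0.60 to 0.34 for tRNA-Leu-TAA-3-1, -0.020 to 0.47 for Leu-AAG and -0.20 to 0.55 for Leu-CAG.

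In EVs against cells, edgeR called 9 to 12 rows and 4 families when 1 library was left out (9 without shDis3l2 cells). The 4 libraries of the shDis3l2 and shNS lines, with line as a replicate block pairing EVs and cells, gave 11 rows and 4 families. Counts of calls stayed within 1.5 times of the reported ones in 151 of the alternatives, moved further in 24 and turned in 1. A single library a group, few counts in 3 rows and tRNA shares of 70.2% to 76.9% in EVs against 9.09% and 13.7% in cells limit these values.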
